A study of Mus musculus with 12 samples.

Results

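The genes described are the neural cell adhesion molecule Ncam1, its paralog Ncam2, the L1 family members L1cam, Chl1, Nrcam and Nfasc, the contactin Cntn1, the adhesion molecule Alcam, and St8sia2 and St8sia4, the enzymes that build polysialic acid on Ncam1. They were chosen by symbol, as 10 of the 55573 genes in the count table, and 5 of the 10 (Ncam1, L1cam, Chl1, Alcam and St8sia4) had enough reads to be among the 13836 genes tested. RNA was sequenced from tumourspheres, clusters of cells grown in suspension, of the mouse mammary tumour lines A1005, A1129 and A1471. Each line came from a spindloid (mesenchymal) tumour of an MMTV-Metmt;Trp53fl/+;Cre mouse. In this mouse the mammary MMTV promoter drives an activated Met transgene and 1 Trp53 allele is floxed, so all groups share these alleles. The paper states that Trp53 is lost in the model and that its endogenous Met locus becomes amplified. For 24 h each line received the vehicle DMSO, Crizotinib (an inhibitor of the Met kinase), PD173074 (an inhibitor of the FGF receptor kinases) or both together (Combo). Each treatment has 1 library from each line, 12 libraries in all, and the 3 lines are the replicates, so the spread given is that between lines of separate tumours. The sphere medium held EGF, basic FGF and insulin, so the FGF receptors had a ligand in every group.

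Members of this family carry immunoglobulin-like domains, and most also fibronectin-like domains, outside the cell, and bind the same or a related molecule on the neighbouring cell. Ncam1 is best known in brain and muscle, where it can also bind FGF receptors and signal through the kinase Fyn, and a coat of polysialic acid on it loosens adhesion. L1 family proteins join the membrane to the spectrin cytoskeleton through ankyrin, contactins are held in the membrane by a lipid anchor, and Alcam is found on many epithelial, mesenchymal and stem cells.

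Ncam1 lies on chromosome 9 at 49502136-49798925 of GRCm38 (mm10), on the minus strand, and the GENCODE annotation gives it 7 transcripts whose exons together cover 8664 bases. The deposited counts are per gene, so they sum over forms that differ in how the protein is held in the membrane. The annotated coding sequences are shown where they part, because this is what a count per gene cannot resolve. Ncam1-201, which encodes 725 residues, the form known to be held by a lipid anchor, and Ncam1-204, which encodes 848 residues, a form with a transmembrane and a cytoplasmic part, share their first 2104 coding bases. The shared last 30 of those bases are in lower case, and the bases that follow, where Ncam1-201 and Ncam1-204 differ from each other, are in capitals. Ncam1-202, which encodes 849 residues and has the same stop position as Ncam1-204, is not shown.
Ncam1-201: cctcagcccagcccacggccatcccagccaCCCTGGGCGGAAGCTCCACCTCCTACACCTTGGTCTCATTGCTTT
Ncam1-204: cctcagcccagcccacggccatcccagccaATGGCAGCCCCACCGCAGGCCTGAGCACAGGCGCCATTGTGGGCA
Both stretches are coding exon sequence on the minus strand. They span an intron, from 49520061 down to 49517535 in Ncam1-201 and down to 49509865 in Ncam1-204. Ncam1-203, which encodes 605 residues, parts from the others after 1799 coding bases and ends with a stop codon 19 bases later, at the end of the bases in capitals.
Ncam1-203: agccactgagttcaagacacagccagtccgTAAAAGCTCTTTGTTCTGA
None of the values given for Ncam1 says which of these forms was made.

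The libraries held 13031492 to 17750476 counts, and 3 counts, the floor used here for detection, equal 0.167 to 0.234 CPM (counts per 1000000 scaled counts of the library). Reads carried no molecular identifiers, so intervals on counts cover counting error only. The share of counts on mitochondrial genes was 1.21 to 1.29% with DMSO, 1.44 to 1.48% with Crizotinib, 1.53 to 1.66% with PD173074 and 1.93 to 2.52% with Combo, ranges that do not overlap; its part in the changes given here was not tested. Mesenchymal markers summed to 3814 to 6047 CPM with DMSO and 3767 to 10848 CPM with Combo, with 10 of 12 tested. Vim, Fn1 and Sparc were the highest, so the sum says little about the other markers. The tested markers were split for Combo against DMSO. With each library compared with its own line, edgeR called 5 higher and 2 lower (adjusted p under 0.05). Without that pairing it called 1 lower and 0 higher. Epithelial markers summed to 16.5 to 74.6 CPM with DMSO and 7.62 to 52.3 CPM with Combo. Krt5, Cldn7 and Esrp1 were at 0 in all libraries and Krt18, Krt8 and Krt19 were the highest.

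Pooled over all libraries, Alcam held 56.8% of the reads on the 10 members and Ncam1 39.0%. Compared per kilobase of exon, the mean level with DMSO was 16.6 CPM per kb for Alcam and 4.51 CPM per kb for Ncam1 (n = 3 lines), and with Combo the order of the means was the reverse, 12.2 and 16.7 CPM per kb. The gap depended on the line, since in A1471 with DMSO the levels were close, 9.1 CPM per kb for Alcam and 8.71 CPM per kb for Ncam1. With Combo that line had 5.54 and 33.3 CPM per kb, and the order was reversed in that line alone. Alcam stayed above Ncam1 with Combo in A1005 (22.6 and 10.4 CPM per kb) and in A1129 (8.4 and 6.5 CPM per kb). Chl1 held 3.14% of the reads, St8sia4 0.415%, L1cam 0.354% and Nrcam 0.189%. Over all 12 libraries Ncam2 had 19 counts, Cntn1 11, Nfasc 1 and St8sia2 0.

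Ncam1 was higher with PD173074 and higher again with Combo in each of the 3 lines, and stayed near its DMSO level with Crizotinib alone. With DMSO it stood at 27.6, 14.1 and 75.5 CPM in A1005, A1129 and A1471, from 353, 215 and 1093 counts. With Crizotinib the levels were 24.6, 18.0 and 74.3 CPM, with PD173074 63.0, 24.9 and 168 CPM, and with Combo 90.4, 56.3 and 288 CPM. In every treatment A1471 was the highest line and A1129 the lowest, and the lines lay so far apart that the 4 groups overlapped: A1129 with Combo was below A1471 with DMSO.

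**Figure D1:**
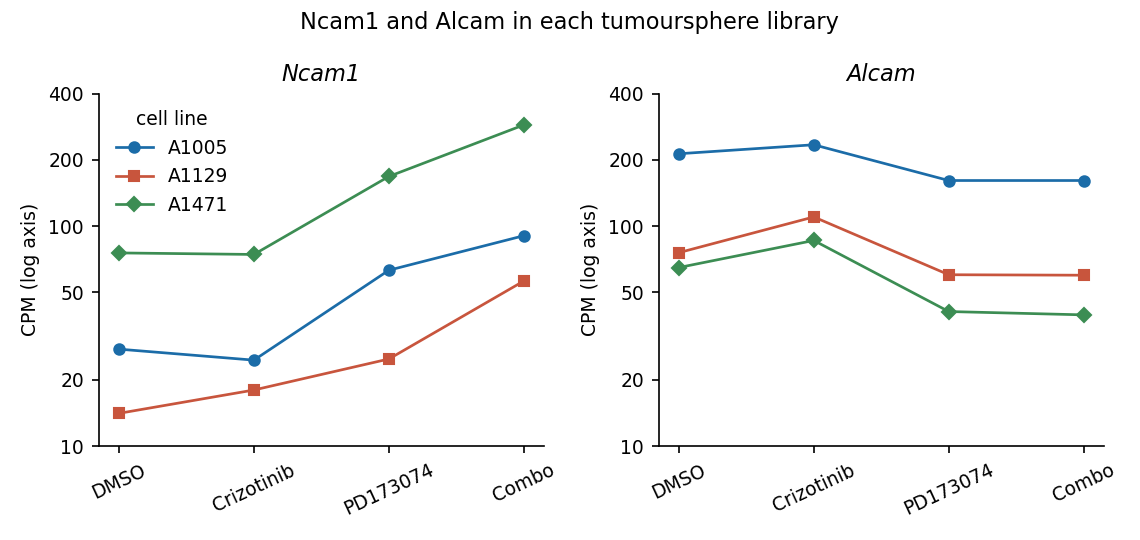
Level of Ncam1 (left) and Alcam (right) in CPM on a log axis, by treatment, with 1 point per library and a line joining the libraries of one cell line. Ncam1 went from 14.1-75.5 CPM with DMSO to 56.3-288 CPM with Combo with the lines kept in the same order, and Alcam was lower with PD173074 and Combo than with DMSO in each line.

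Within a line the ratio of Combo to DMSO for Ncam1 was 3.28 in A1005 (95% counting interval 2.92 to 3.69), 3.98 in A1129 (3.43 to 4.64) and 3.82 in A1471 (3.57 to 4.09). The 3 ratios are close to each other although the starting levels differ several-fold. In bulk RNA, more cells that express Ncam1 and more Ncam1 RNA per cell cannot be told apart. The group means were 39.1 ± 32.3 CPM with DMSO and 145 ± 125 CPM with Combo (SD, n = 3).

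Measured against the spread between lines, this difference did not pass the test, with a log2 fold change of 1.89 (SE 0.93) and an edgeR quasi-likelihood adjusted p of 0.212. With the cell line as a block, so that each library is compared with its own line, the log2 fold change was 1.88 (SE 0.15) and the edgeR adjusted p was 7.8e-06. The fit without the block called 14.4% of the tested genes in this comparison (6.1% higher, 8.28% lower) and 0 of the 5 tested members, none of them at an unadjusted p under 0.05 either. DESeq2 and limma-voom without the block also called 0 members. With the block 54.8% of tested genes were called (28.6% higher, 26.2% lower), so that a call alone sets a member little apart. Of the 5 members 3 were called: Ncam1 and, from few reads, St8sia4 higher, and Alcam lower. The median log2 fold change of the 5 without the block was 0.44, beside 0.02 over all tested genes. That median is the value of Chl1 (SE 2.93), which was read in A1005 alone, so it shows no shift of the members as a group.

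The effect of PD173074 alone on Ncam1 was smaller. The log2 differences from DMSO were 1.19, 0.81 and 1.15 in A1005, A1129 and A1471, ratios of 2.29, 1.76 and 2.22. Without the block edgeR gave 1.13 (SE 0.91, adjusted p = 1), and with it 1.07 (SE 0.15, adjusted p = 0.00821). In this comparison edgeR without the block called 0.0% of genes and 0 members, with 307 genes and 0 members at an unadjusted p under 0.05. After adjustment DESeq2 without the block called 17 genes and limma-voom 0, and none was a member. With the block edgeR called 2.14% (1.62% higher, 0.52% lower) and 2 of the 5 members, Ncam1 and Chl1, both higher. Chl1 was read in A1005 and had 1 count elsewhere, so its call has no replicate. DESeq2 with the block called Ncam1 and Alcam, and not Chl1. The blocked call for Ncam1 was lost without A1005 (log2 fold change 1.01, edgeR adjusted p = 0.058) and without A1471 (1.05, adjusted p = 0.228), and remained without A1129 (1.18, adjusted p = 0.0169). Most other calls were lost too, as these fits called 59, 4 and 131 genes, beside 296 with all lines.

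Crizotinib alone left Ncam1 at log2 differences of -0.16, 0.35 and -0.02 from DMSO in A1005, A1129 and A1471. The blocked estimate was 0.05 (SE 0.15, edgeR adjusted p = 1). No gene at all was called by edgeR for Crizotinib, with or without the block, both 0.0% (18 and 258 genes at an unadjusted p under 0.05). DESeq2 called 1 gene without the block and 2 with it, limma-voom 0 and 1, and none of these was a member. Alcam and Chl1, the latter read in 1 line alone, were the 2 members with a blocked unadjusted p under 0.05 in edgeR.

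When Crizotinib was added to PD173074, Ncam1 stood higher than with PD173074 alone by 0.52, 1.17 and 0.78 on the log2 scale in A1005, A1129 and A1471. The edgeR estimate was 0.77 (adjusted p = 0.749) without the block and 0.81 (SE 0.14, adjusted p = 0.00195) with it. Of all genes 4.77% were called without the block and 39.8% with it (19.6% higher, 20.2% lower), and of the 5 tested members 0 and 2, Ncam1 higher and Chl1, again from 1 line, lower. The sum of the 2 single effects on Ncam1 was 1.03, 1.16 and 1.13 and the Combo effect was 1.71, 1.98 and 1.93, so that Combo lay above the sum by 0.68, 0.82 and 0.80. Tested as one contrast in edgeR, this departure was 0.77 (adjusted p = 1) without the block, where 0.918% of genes and 0 members were called, and 0.75 (SE 0.20, adjusted p = 0.0342) with it, where 16.2% of genes (5.46% higher, 10.7% lower) and 1 member, Ncam1, were called. With any 1 line left out the blocked departure was 0.73 to 0.80 and was no longer called, with edgeR adjusted p of 0.0603 to 0.236. These fits called 423 to 1679 genes, beside 2241 with all lines.

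**Figure D2:**
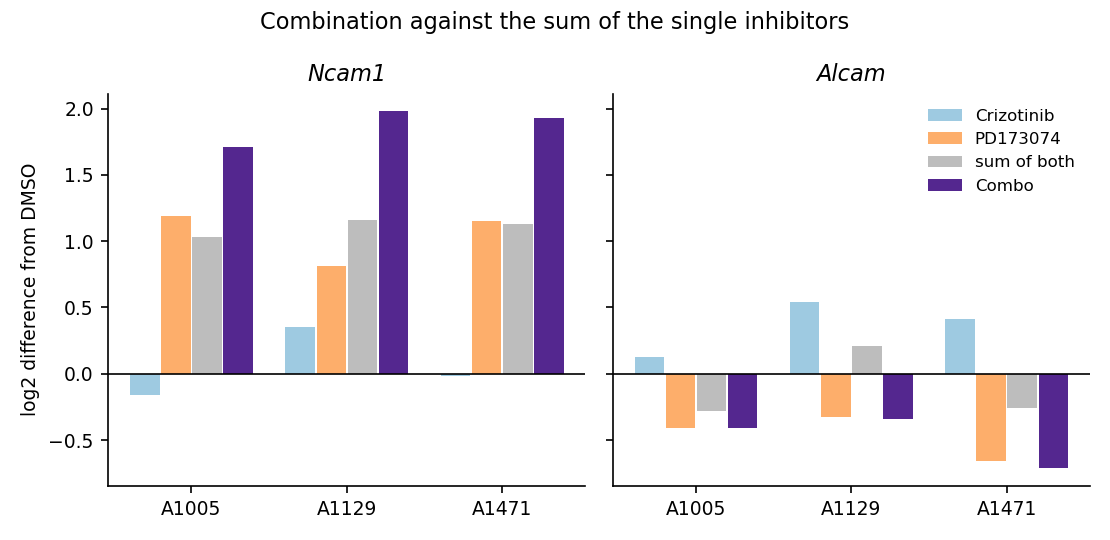
Log2 difference from DMSO in each cell line for Crizotinib, PD173074, the sum of these 2 values, and Combo, for Ncam1 (left) and Alcam (right), with 1 library per bar and treatment. For Ncam1 the Combo bar is 0.68 to 0.82 above the sum in the 3 lines, and for Alcam it is close to the PD173074 bar.

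Combo and Crizotinib alone differed for Ncam1 by an edgeR log2 fold change of 1.89 (adjusted p = 0.213) without the block and 1.82 (SE 0.15, adjusted p = 1.0e-05) with it. In this comparison 13.2% of genes and 0 members were called without the block, and with it 53.4% (27.4% higher, 26.0% lower) and 4 of the 5 members. The 4 were Ncam1, Chl1 (from 1 line) and St8sia4 (from few reads), all higher with Combo, and Alcam, which was lower. The comparisons with DMSO share the DMSO libraries, and those of Combo share the Combo libraries, so they are not independent of each other.

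An antisense gene, Gm11149, covers exons of Ncam1 on the other strand, and the use of strand in counting is not given in the sources used here, so reads of the pair cannot be told apart. Gm11149 itself had at most 6 counts in any library, beside 215 or more for Ncam1.

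Polysialic acid is added to Ncam1 by St8sia2 and St8sia4, and only St8sia4 had reads. St8sia2 (chromosome 7, 73939119-74013690) had 0 counts in each of the 12 libraries, which allows up to 0.167 to 0.234 CPM. St8sia4 (chromosome 1, 95587682-95667571) had 12, 1 and 0 counts with DMSO in A1005, A1129 and A1471, 8, 3 and 0 with Crizotinib, 30, 12 and 0 with PD173074, and 29, 48 and 0 with Combo. It was thus not detected in A1471, the line with the highest Ncam1 level. With DMSO, Crizotinib and PD173074 its count was highest in A1005, and with Combo in A1129, the line with the lowest Ncam1 level.

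In A1129 the ratio of Combo to DMSO for St8sia4 was 45.7, with a counting interval of 7.83 to 1844 because it rests on 1 DMSO count. In A1005 it was 1.72 (0.852 to 3.70), an interval that includes no change. Combo and PD173074 differed by a ratio of 3.5 (1.83 to 7.25) in A1129 and 0.889 (0.515 to 1.53) in A1005. The edgeR log2 fold change for Combo against DMSO was 2.21 (SE 1.88, adjusted p = 0.496) without the block and 2.39 (SE 0.83, adjusted p = 0.0419) with it, and for Combo against Crizotinib 2.59 (adjusted p = 0.430) and 2.71 (adjusted p = 0.0292). These blocked calls rest on few reads and are descriptive only. St8sia4 passed the filter on low counts mostly through its PD173074 and Combo libraries. With the Combo and Crizotinib libraries alone it had too few reads to be tested. For Combo against DMSO the estimate was 0.75 without A1129 (edgeR adjusted p = 0.400), 2.43 without A1471 (adjusted p = 0.0673) and 5.16 without A1005 (adjusted p = 0.0113), and for Combo against Crizotinib 1.52 without A1129 (adjusted p = 0.154), 2.77 without A1471 (adjusted p = 0.0509) and 3.79 without A1005 (adjusted p = 0.018). The blocked estimate for PD173074 against DMSO, 1.49 (SE 0.86), did not pass (edgeR adjusted p = 0.458).

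Alcam differed in the other direction. This adhesion molecule (chromosome 16, 52248996-52454074, 7121 bases of exon) was lower with PD173074 and with Combo in each line and higher with Crizotinib alone. With DMSO it stood at 213, 75.7 and 64.8 CPM in A1005, A1129 and A1471, and with Crizotinib at 234, 110 and 86.0 CPM. With PD173074 it was at 161, 60.1 and 40.9 CPM and with Combo at 161, 59.8 and 39.5 CPM. A1005 was the highest line and A1471, the highest for Ncam1, was the lowest in every treatment, and the 4 groups overlapped.

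The log2 differences of Alcam from DMSO with Combo were -0.41, -0.34 and -0.71, almost the same as those with PD173074, -0.41, -0.33 and -0.66. The edgeR estimate for Combo was -0.44 (SE 0.71, adjusted p = 0.749) without the block and -0.48 (SE 0.12, adjusted p = 0.00605) with it, and the blocked call was lost without A1471 (-0.36, adjusted p = 0.0707). The blocked estimate for PD173074 was as large, -0.47 (SE 0.12), but did not pass over all genes in edgeR (adjusted p = 0.0772) or limma-voom (0.0697), and passed in DESeq2 (0.0174), each with the block. Combo and PD173074 differed for Alcam by -0.02 (SE 0.12, edgeR adjusted p = 0.929 with the block).

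With Crizotinib the Alcam level was above that with DMSO in 3 of 3 lines, by 0.13, 0.54 and 0.41 on the log2 scale, and the difference did not pass the test (blocked edgeR estimate 0.37, SE 0.12, adjusted p = 1, unadjusted p = 0.0107). Between Combo and Crizotinib the difference was -0.73 (adjusted p = 0.574) without the block and -0.85 (SE 0.12, adjusted p = 2.4e-04) with it in edgeR. The departure of Combo from the sum of both inhibitors was -0.38 with the block (SE 0.17, edgeR adjusted p = 0.142).

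**Figure D3:**
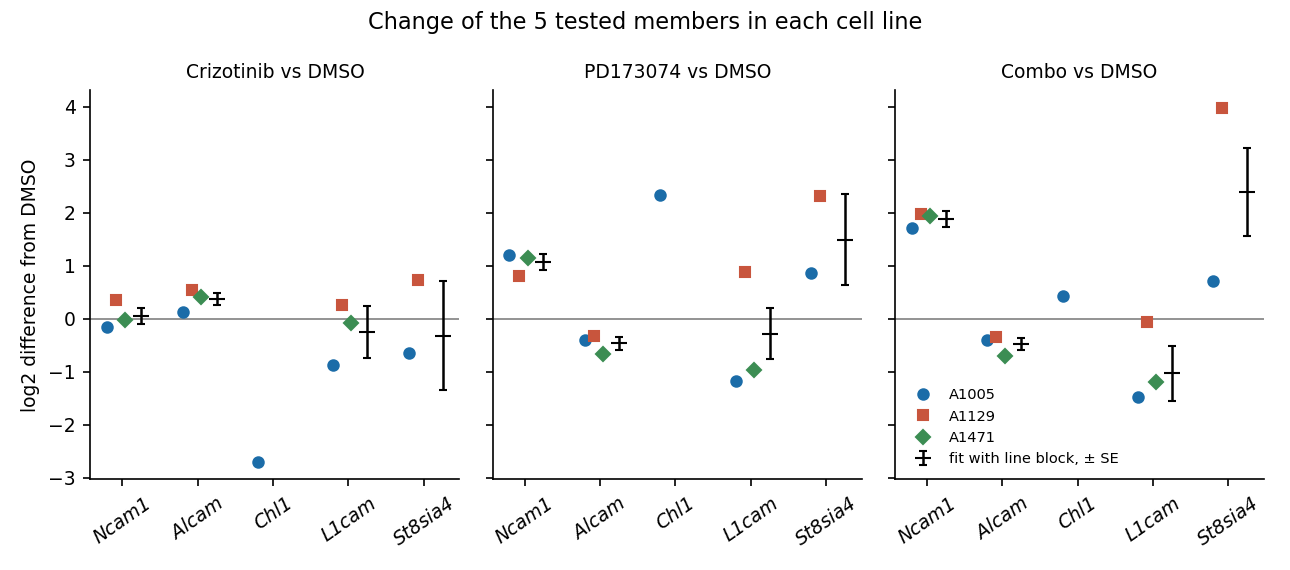
Log2 difference from DMSO of the 5 tested members with Crizotinib, PD173074 and Combo, with 1 point per cell line and, in black, the edgeR estimate with the line as a block with its SE (not drawn for Chl1). Lines with 3 or fewer counts in the pair are not drawn, which leaves Chl1 with A1005 alone and St8sia4 with A1005 and A1129, while Ncam1 lies at 1.71 to 1.98 in all 3 lines with Combo.

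Chl1, a close homolog of L1, was read in A1005 alone. This gene (chromosome 6, 103510586-103750211) had 112 counts with DMSO in that line, 18 with Crizotinib, 739 with PD173074 and 212 with Combo, which is 8.74, 1.23, 44.7 and 11.8 CPM. A1129 had 1 count, with PD173074, and A1471 had 0 in all 4 libraries. Each level of Chl1 is therefore 1 library of 1 line.

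Within A1005 the ratio to DMSO was 5.11 with PD173074 (counting interval 4.18 to 6.29), 0.141 with Crizotinib (0.0804 to 0.233) and 1.35 with Combo (1.07 to 1.71). The Chl1 level of this line was thus above DMSO with 1 inhibitor and below it with the other, and with both it lay between the 2. Combo was at 0.264 of PD173074 (0.225 to 0.308) and at 9.58 times Crizotinib (5.92 to 16.5). These intervals cover counting error within the libraries and not the spread between cultures.

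The edgeR fit counted Chl1 among the members called with the block in 3 comparisons, but each of these sets 1 library of A1005 against another, so no p is given for them. The blocked log2 fold changes were 2.35 for PD173074 against DMSO, -1.93 for Combo against PD173074 and 3.21 for Combo against Crizotinib. DESeq2 with the block called Chl1 in none of the 3, and limma-voom with the block in all 3. Without A1129 or without A1471 edgeR no longer called it for PD173074 against DMSO, and still called it in the other comparisons. Those left-out lines held 1 count of Chl1 or none, so their removal says nothing about the gene. Without A1005 the gene had too few reads to be tested.

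L1cam (chromosome X, 73853778-73896105), which gives the L1 family its name, was near the limit of detection in every group. Its counts in A1005, A1129 and A1471 were 11, 14 and 10 with DMSO, 6, 17 and 9 with Crizotinib, 5, 25 and 4 with PD173074 and 4, 14 and 3 with Combo. The log2 fold change for Combo against DMSO was -0.88 (edgeR adjusted p = 0.537) without the block and -1.03 (SE 0.52, adjusted p = 0.117) with it. A1129 had more counts than the other lines in each group. Arhgap4, on the same strand, shares annotated exon positions with L1cam and had 3 to 17 counts, so the assignment of reads between them is uncertain.

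Nrcam (chromosome 12, 44328885-44601964), an L1 family member of the node of Ranvier, had 8, 2 and 2 counts with DMSO in A1005, A1129 and A1471, 7, 1 and 0 with Crizotinib, 10, 10 and 3 with PD173074 and 7, 12 and 3 with Combo. With all 12 libraries it did not have the reads to enter the test. It entered when A1005 or A1471 was left out, and was then called once, without A1005 and with the block, for Combo against Crizotinib (log2 fold change 3.56, SE 0.96, edgeR adjusted p = 0.0179), from 15 counts against 1. In A1129 the counts were higher with PD173074 and Combo than with DMSO and Crizotinib, as they were for St8sia4 in that line. Nfasc (chromosome 1, 132564690-132741797), another ankyrin-binding member of axons, had 1 count in all, in A1129 with Combo.

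**Figure D4:**
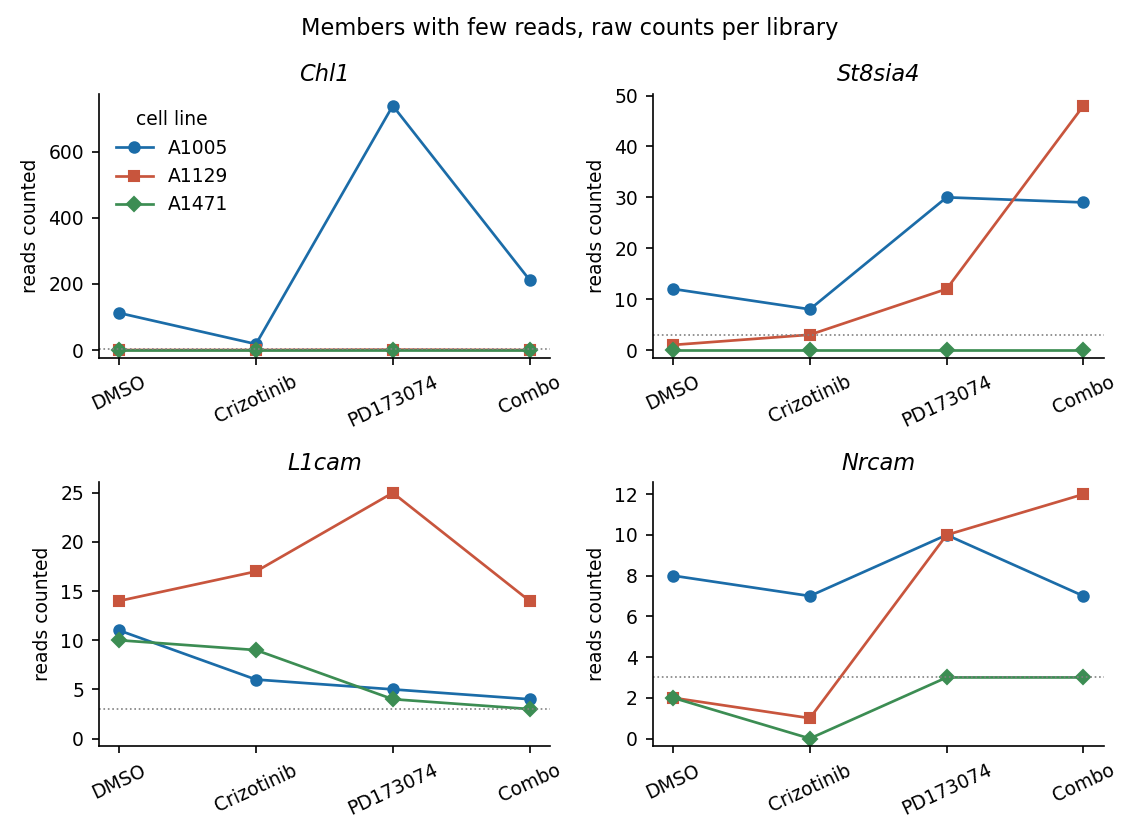
Raw counts of Chl1, St8sia4, L1cam and Nrcam by treatment, with 1 point per library, a line joining the libraries of one cell line and a dotted line at 3 counts. Chl1 is read in A1005 alone and peaks at 739 counts with PD173074, and St8sia4 reaches 48 counts in A1129 with Combo and stays at 0 in A1471.

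Ncam2 (chromosome 16, 81200697-81626828) had 17 counts in A1129 with Combo and 0 or 1 in each of the other 11 libraries. Against 0 counts in the DMSO library of A1129, taken at the floor of 3, that is at least 5.4-fold higher, in a single library. Cntn1 (chromosome 15, 92051165-92341967) had 5, 0 and 2 counts with DMSO, 1 in A1005 with Crizotinib, 3 in A1005 with Combo and 0 elsewhere. Neither gene was tested.

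The genes most like Ncam1 were found by Pearson's r of log2 CPM over the 12 libraries, among 9611 well-expressed genes, as a description: the points share lines and treatments. As measured, where differences between lines weigh most, the highest were Galnt10 (r = 0.985), Vwa8 (0.982), Wnt10b (0.978), Tut7 (0.967) and Tmem260 (0.963). After each gene was centred within its line, which leaves the treatments, they were Il6st (0.995), the shared receptor chain of the interleukin-6 family, Gnao1 (0.993), a G protein subunit, Susd6 (0.993), Rgma (0.991), a guidance molecule that binds neogenin, and Bmf (0.991), a BH3-only promoter of apoptosis. The centred r with Ncam1 was 0.692 for St8sia4, 0.395 for Chl1, -0.701 for L1cam and -0.802 for Alcam.

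Of 55 other immunoglobulin-type adhesion genes, 30 were tested. With Combo against DMSO 2 rose and 2 fell in edgeR, 13.3% beside 14.4% of all genes. With the block 12 rose and 5 fell, 56.7% beside 54.8% of all genes. The median log2 fold change without the block was 0.31 beside 0.02 for all genes. Vcam1, an integrin ligand, went from 12.4 ± 4.67 to 123 ± 118 CPM (log2 fold change 3.31, adjusted p = 0.0458), and Cdon, a Hedgehog co-receptor, from 5.31, 13.7 and 13.9 CPM in A1005, A1129 and A1471 to 39.2, 100 and 52.2 CPM (2.54, adjusted p = 0.0172). Igsf8, a partner of tetraspanins, went from 172 ± 59.3 to 80.6 ± 5.29 CPM (-1.10, adjusted p = 0.0387), and Pvr, a nectin-like receptor, from 78.2 ± 13.0 to 40.8 ± 6.07 CPM (-0.94, adjusted p = 0.0236). The Combo and DMSO libraries did not overlap for any of the 4. With PD173074 alone Cdon was the gene of this list that edgeR called with the block.

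Of 42 genes for binding or signalling partners of Ncam1 and the L1 family, 36 were tested, and 1 rose and 1 fell with Combo, 5.56% beside 14.4% of all genes. With the block 10 rose and 7 fell, 47.2% beside 54.8%. The median log2 fold change without the block was -0.10. Agrn, a heparan sulphate proteoglycan that binds Ncam1, went from 102 ± 10.3 to 188 ± 62.0 CPM (edgeR adjusted p = 0.0325). Msn, moesin, which ties membrane proteins to actin, went from 831 ± 175 to 492 ± 58.1 CPM (edgeR adjusted p = 0.0312). Fgfr1 (log2 fold change -0.11, adjusted p = 0.711) and Fyn (0.08, adjusted p = 0.964) did not pass.

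Of 23 genes for sialic acid supply, its removal and the shedding of adhesion molecules, 17 were tested, and 1 rose and 1 fell, 11.8% beside 14.4% of all genes. With the block 4 rose and 4 fell, 47.1% beside 54.8%. The median log2 fold change without the block was -0.05. Neu1, the lysosomal sialidase, went from 20.3, 30.5 and 18.2 CPM with DMSO in A1005, A1129 and A1471 to 62.9, 102 and 83.4 CPM with Combo (log2 fold change 1.85, SE 0.27, edgeR adjusted p = 0.00212). Nans, the sialic acid synthase, went from 115 ± 6.55 to 71.3 ± 6.25 CPM (-0.70, edgeR adjusted p = 0.00342). Cmas, which activates sialic acid, and Slc35a1, which carries it into the Golgi, changed by -0.37 and -0.45 (edgeR adjusted p = 0.177 and 0.151), and were called with the block (0.00913 and 0.0125). Both blocked calls were lost without A1129 (edgeR adjusted p = 0.0866 and 0.105) and without A1471 (0.0511 and 0.135). Gne, the first enzyme of the pathway, stood at 0.03 (adjusted p = 0.964), and Adam10, a protease that sheds adhesion molecules, at 0.44 (0.127, and 0.0405 with the block). The blocked Adam10 call was lost without A1005 (edgeR adjusted p = 0.172) and without A1129 (0.311), and in A1471 the log2 difference was -0.11.

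**Figure D5:**
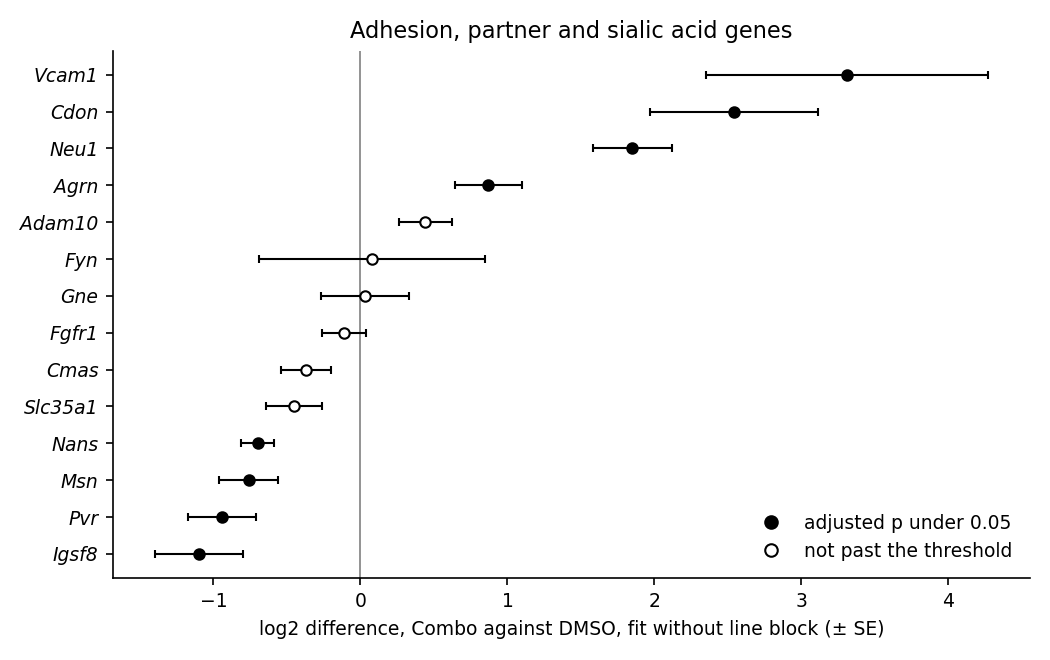
Log2 difference between Combo and DMSO with its SE (edgeR without the line block, n = 3 lines a group) for the genes named from the lists of other adhesion molecules, partners of Ncam1 and the L1 family, and sialic acid and shedding genes. Filled points passed an adjusted p of 0.05: Vcam1, Cdon, Neu1 and Agrn above 0, and Nans, Msn, Pvr and Igsf8 under 0.

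All 8 of these calls without the block were lost when A1471 was left out (edgeR adjusted p = 0.0887 for Neu1 to 0.277 for Vcam1). That fit called 120 of 14021 genes, beside 1990 of 13836 with all lines. Without A1129, where 324 genes were called, Neu1 and Vcam1 remained, and without A1005, where 2021 were called, 5 of the 8 remained. With the block all 8 remained whichever line was left out, in fits that called 5153 to 6823 genes.

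Ncam1 is also expressed by nerve, glial and muscle cells, so their markers, with immune and endothelial ones, were measured beside it. Summed over 12 genes each, neuron markers were at 5.85 to 25.5 CPM with DMSO and 1.56 to 33.5 CPM with Combo, with Elavl4 and Dcx at 0. The highest were Tubb3, Nefl and Nefm, and with the block edgeR called 2 of the 3 tested neuron markers lower with Combo than with DMSO. Schwann and glial markers were at 3.16 to 5.07 and 6.58 to 11.2 CPM, ranges that do not overlap. Foxd3, Olig2 and Aqp4 were at 0 and Sox10 at 3 counts or fewer in every library, and the highest were Mbp, Ngfr and Erbb3. The 4 tested glial markers all had a log2 fold change above 0 with Combo, and edgeR called 2 of them higher with the block. Skeletal muscle markers were at 0.898 to 14.3 and 3.02 to 16.2 CPM with Myod1, Myog and Myf5 at 0 and Tnnt3, Des and Pax7 the highest. Immune markers were at 4.93 to 31.5 and 8.53 to 42.3 CPM with Ncr1, Nkg7 and Tyrobp at 0 and Cd68, Ptprc and Cd79a the highest. Endothelial markers were at 25.1 to 66.2 and 9.65 to 52.1 CPM with Cldn5 and Robo4 at 0 and Flt1, Egfl7 and Vwf the highest. The blocked edgeR calls for Combo against DMSO were 1 of 3 tested muscle markers lower, 1 of 2 immune higher and 1 of 3 endothelial lower. Of all genes 54.8% were called. Whether such cells were present was not tested.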

How the data were processed

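Total RNA of the 12 tumoursphere libraries was sequenced by the study on a NextSeq500 instrument. A single table of whole-number read counts per Ensembl gene was deposited by the authors. The submitters' processing notes name bcl2fastq, STAR and HTSeq with the mouse build mm10, and versions, annotation release and strand setting are not given in the sources used here. Treatment and line came from the labels.

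In R 4.3.3, genes past edgeR's filterByExpr (at least 10 counts, 15 in total) were scaled by TMM, and edgeR 4.0.16 tested the treatments with glmQLFTest (quasi-likelihood) in a fit over all 12 libraries, adjusted by Benjamini-Hochberg over 13836 genes and called under 0.05. This fit has no block, as the study's methods give an unpaired test. Same-numbered libraries are the same cell line, which pairs them: within a line, deviations from the treatment means correlated at 0.766 to 0.962, and between lines at -0.663 to -0.0472. The blocked fit is therefore given too. The pairs of libraries all differed beyond sampling noise (lowest chi-square per degree of freedom 4.54). CPM are per 1000000 TMM-scaled counts, log2 CPM has a prior count of 2, and CPM per kb uses the union of exons in GENCODE vM21, which matched 55480 of the 55573 genes. Within-line ratios have exact binomial 95% intervals. The scripts were tested on simulated data.

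Alternatives were the block, DESeq2 1.42.0 and limma 3.58.1 (voom), each with and without the block, DESeq2 size factors, no filter, the compared groups alone, an absolute log2 fold change of 1.5 and each line left out. The same alternatives for genes of the other lists were added after their values were seen. The members, gene lists and tests were chosen with earlier results of these data known. Named were all members, genes overlapping them, listed genes past the threshold with Combo (average log2 CPM of at least 3, at most 5 a list) with Fgfr1, Fyn, Adam10, Gne, Cmas and Slc35a1, and the 5 genes most like Ncam1 in each of 2 measures.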

Additional observations from a re-analysis of the deposited data

Results flagged for a closer look

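The effect of PD173074 on Ncam1 was larger with Crizotinib than without it, by 0.75 on the log2 scale in the edgeR fit with the cell line as a block (SE 0.20, adjusted p = 0.0342, above 0 in 3 of 3 lines). Without the block the same contrast was 0.77 (edgeR adjusted p = 1). With the block DESeq2 gave 0.79 (adjusted p = 0.00564) and limma-voom 0.78 (adjusted p = 0.0266). The blocked edgeR call was lost with any 1 line left out (adjusted p = 0.0603 to 0.236), and 16.2% of all genes were called in this contrast with the block. That share is 2241 genes, and 423 to 1679 genes were called with 1 line left out.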

How the results depend on the processing

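Without the block, no alternative called any member in any of the 6 comparisons, also with each line left out. With the cell line as a block, the members called were 3 for Combo against DMSO, 2 for PD173074 against DMSO, 2 for Combo against PD173074, 4 for Combo against Crizotinib and 1 for the departure from additivity by edgeR. Limma-voom with the block gave the same numbers and DESeq2 with the block 3, 2, 1, 3 and 1, with Alcam in place of Chl1 for PD173074 and no call for Chl1 elsewhere. With the block and each line left out in turn, edgeR called 1 to 3, 0 to 1, 1 to 2, 3 to 4 and 0 members. Fewer genes of any kind were called in these fits, 5153 to 6823, 4 to 131, 2352 to 4734, 4880 to 6545 and 423 to 1679. With all lines the numbers of genes called were 7578, 296, 5506, 7389 and 2241 of 13836 tested. No member was called for Crizotinib against DMSO under any alternative. Of the 8 other listed genes called for Combo against DMSO without the block, 7 remained with limma-voom, 4 with no filter on low counts and 2 with the compared groups alone. Genes of any kind called in these fits were 1931 of 13836, 1160 of 28504 and 594 of 12868, beside 1990 of 13836. When a log2 change of 1.5 or more was also asked for, 3 of the 8 remained, and the share of all genes was not counted.

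The sign of the log2 fold change turned only for values that were not called. Ranges over the left-out lines, with and without the block, were -0.77 to 1.38 for St8sia4 with Crizotinib and -0.19 to 1.80 for St8sia4 with Combo against PD173074. For L1cam, which was not tested without A1129, they were 0.02 to 0.36 with PD173074 and -0.33 to 0.14 with Crizotinib. With all lines L1cam with PD173074 was at -0.06 without the block and -0.29 with it. Its log2 differences from DMSO were -1.18 in A1005, 0.87 in A1129 and -0.98 in A1471. For Combo against DMSO the ranges over the left-out lines were -0.27 to 0.12 for Fgfr1, -0.02 to 0.38 for Fyn and -0.15 to 0.20 for Gne. St8sia4 with Crizotinib was 0.29 in limma-voom (0.05 with the block). Alcam for Combo against PD173074 was 0.02 under DESeq2 with and without the block and with DESeq2 size factors. The departure of Chl1 was -0.68 in DESeq2 with the block and -0.48 in limma-voom. The cause was not tested.

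Few reads limit St8sia4, L1cam, Nrcam, Ncam2 and Cntn1, for which only large changes could be seen. With the median transcript length in place of the exon union, DMSO levels were 72.7 CPM per kb for Alcam and 15.2 for Ncam1. The Combo means were then 53.5 CPM per kb for Alcam and 56.5 for Ncam1, still in reversed order but close. The comparison within single lines was made on the exon union alone.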
